A study of Mus musculus with 20 samples.

Results

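miR-124 is represented in these data by 2 mature arms, mmu-miR-124-3p and mmu-miR-124-5p, which were taken by name from the 1886 mature miRNAs listed for each library and are written miR-124-3p and miR-124-5p below. Both arms passed the filter on low counts and were among the 542 miRNAs tested. Small RNA was sequenced from primary neuron cultures of the ventral midbrain, taken at embryonic day 12.5 from C57Bl6/J mice after removal of the meninges. They were kept in serum-free Neurobasal-A with B27 on a coat of poly-L-ornithine and laminin. There were 4 groups of 5 libraries: cultures of day 1 in vitro (DIV1) without GDNF, DIV1 with GDNF at 10 ng/ml, day 5 in vitro (DIV5) without GDNF, and DIV5 with GDNF at 10 ng/ml. GDNF is a growth factor known for its support of midbrain dopaminergic neurons. No genetic change is named for any group. Nothing in the labels ties a replicate to its own animal or culture, so p-values measure only the spread between these libraries, which may be technical. The dissected tissue holds other cells beside neurons, and in bulk RNA fewer cells of a type and less RNA per cell cannot be told apart.

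A miRNA hairpin yields a 5p and a 3p arm, of which usually one is loaded into the silencing complex as the guide while the other is degraded as the passenger. miR-124-3p is the known guide arm of miR-124. It is among the best known neuronal miRNAs, switched on as progenitors become neurons, and it represses transcripts of non-neuronal cells such as that of the splicing regulator Ptbp1. The repressor REST keeps miR-124 genes silent outside neurons, and miR-124-3p acts with miR-9-3p on the mRNA of the progenitor chromatin subunit BAF53a.

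In mouse both arms are made from 3 gene copies, so a count cannot be assigned to a copy. On build mm10 (GRCm38), Mir124a-1 lies on chromosome 14 at 64590657 to 64590741, inside exon 4 of a transcript of the long non-coding RNA Mir124a-1hg. Mir124a-2 lies on chromosome 3 at 17795662 to 17795770, within the long non-coding RNA gene Mir124-2hg, where it overlaps an exon of 1 transcript in part. Mir124a-3 lies on chromosome 2 at 180894040 to 180894107, and its end overlaps the start of the long non-coding RNA Gm27032. All 3 are on the plus strand. RefSeq also places Gm51272, with the synonym Mir124b, inside Mir124a-2 at 17795685 to 17795741. How the authors counted reads that map to several copies is not given in the sources used here, and a level of miR-124 relative to single-copy miRNAs depends on it.

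Libraries held 420118 to 1761023 counts at DIV1 and 1061619 to 4324505 at DIV5. Levels are given in CPM (counts scaled to library size, with TMM factors from edgeR), where 1 read was worth 0.198 to 2.60 CPM. The 5p arm had between 96 and 723 reads per library and the 3p arm between 1049 and 31280. DIV5 control libraries 1 and 5 stood apart from the other 3 DIV5 controls: 43 of the 542 tested arms were at least 2-fold higher in both of them. Where a printed log2 value or ratio change without GDNF loses its call or moves by over 1.5 times without them, both are given. Counts of called arms are for all 5 DIV5 controls unless stated. The DIV5 libraries also form 2 sets by depth. Replicates 1 and 2 of both DIV5 groups held 1061619 to 1907937 counts, with 17.7% to 19.5% of reads outside any miRNA, and replicates 3 to 5 held 2969524 to 4324505 counts, with 9.51% to 13.3%. The labels name no batch for these sets, so the values of both arms are also given within each.

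Between DIV1 and DIV5, miR-124-3p rose 2.57-fold without GDNF and 2.47-fold with it, while miR-124-5p fell to 0.428 and 0.393 of its DIV1 level. On average the 5p arm made up 10.5% of miR-124 reads in DIV1 controls and 1.90% in DIV5 controls. Neither arm passed the test for GDNF at either day.

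Without GDNF, the 5 DIV1 libraries had miR-124-3p levels of 1970, 2274, 2602, 2294 and 2645 CPM (libraries 1 to 5), a mean of 2357 ± 275 CPM (SD, n = 5). The 5 DIV5 libraries had 5822, 6216, 6183, 5965 and 6113 CPM, a mean of 6060 ± 165 CPM. The groups did not overlap, and the DIV5 controls lay within a narrow band. In the edgeR quasi-likelihood test this was a log2 fold change of 1.36 (SE 0.11, 2.57-fold, adjusted p = 4.92e-09).

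With GDNF, miR-124-3p had 2233, 2298, 2541, 2411 and 2725 CPM at DIV1 (2442 ± 197, SD, n = 5) and 5063, 5507, 6129, 6103 and 7399 CPM at DIV5 (6040 ± 880). The groups again did not overlap, but the DIV5 libraries were more spread than the controls of that day, with libraries 1 and 2 lowest and library 5 highest. The log2 fold change was 1.31 (SE 0.11, 2.47-fold, edgeR adjusted p = 1.05e-08). In the order of group means, DIV1 control, DIV1 GDNF, DIV5 GDNF and DIV5 control, the neighbours within a day did not differ beyond their spread and the step between the days did.

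miR-124-5p, the passenger arm, had 222, 276, 320, 333 and 223 CPM in the DIV1 controls, a mean of 275 ± 52.5 CPM (SD, n = 5). In the DIV5 controls it had 127, 96.7, 100, 104 and 158 CPM, a mean of 117 ± 25.6 CPM. All DIV5 values were below all DIV1 values, and the highest of them were in libraries 1 and 5. The log2 fold change was -1.23 (SE 0.17, 0.428-fold, edgeR adjusted p = 2.71e-06). Without DIV5 control libraries 1 and 5 it was -1.43 (edgeR adjusted p = 8.87e-07).

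With GDNF, miR-124-5p had 212, 267, 341, 302 and 249 CPM at DIV1 (274 ± 49.4, SD, n = 5) and 101, 109, 99.8, 103 and 127 CPM at DIV5 (108 ± 11.1). The groups did not overlap, and the DIV5 libraries lay closer together than the controls of that day. The log2 fold change was -1.35 (SE 0.17, 0.393-fold, edgeR adjusted p = 9.53e-07). The order of group means from high to low was DIV1 control, DIV1 GDNF, DIV5 control and DIV5 GDNF, again with no difference beyond the spread between neighbours of the same day.

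**Figure D1:**
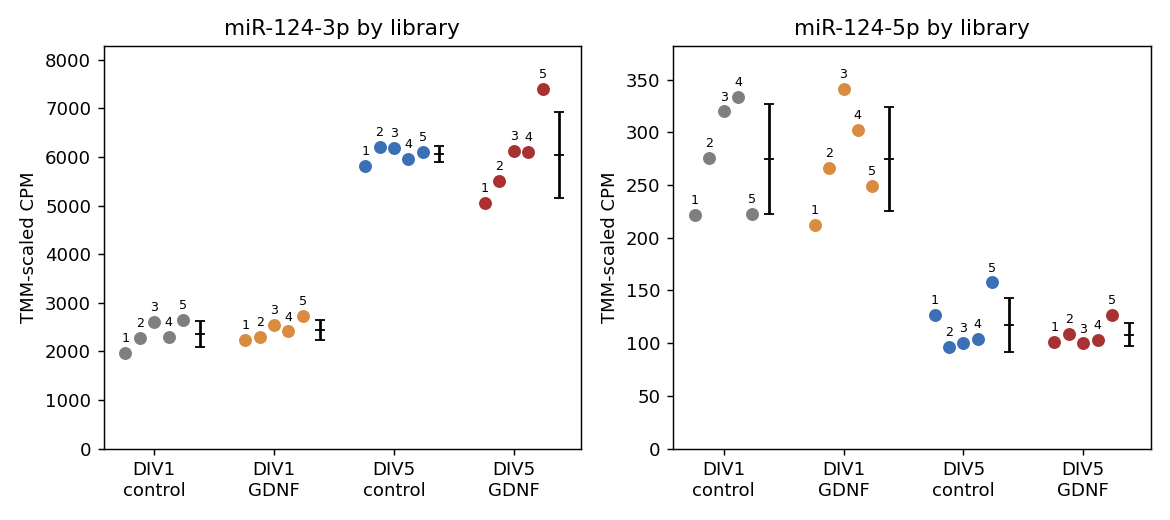
Level of miR-124-3p (left) and miR-124-5p (right) in TMM-scaled CPM on linear axes from 0, 1 point per library with its replicate number, and beside each group the mean with the SD of 5 libraries. The 3p arm is higher and the 5p arm lower in every DIV5 library than in every DIV1 library, with and without GDNF.

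These calls stand beside many others, since culture time changed a large share of all miRNAs. Without GDNF, 60.7% of the 542 tested miRNAs were called between the days (edgeR adjusted p below 0.05), 31.4% higher and 29.3% lower at DIV5. With GDNF, 52.4% were called, 25.1% higher and 27.3% lower. A call in either direction is therefore not particular to miR-124. The split of calls depends on the scaling. Of the calls without GDNF 51.7% were higher, and 67.3% with library totals only, which moved the median of all miRNAs up by 0.25 on the log2 scale. With GDNF the shares were 47.9% and 58.7%, with a median shift of 0.15. Under that scaling miR-124-3p had log2 values of 1.61 and 1.46 and miR-124-5p of -0.96 and -1.19, without and with GDNF, so the directions of the arms did not flip. Within the sets of DIV5 libraries, against all DIV1 libraries, miR-124-3p had 1.41 (replicates 1 and 2) and 1.37 (replicates 3 to 5) without GDNF and 1.11 and 1.46 with it. miR-124-5p had -1.21 and -1.20 without GDNF and -1.39 and -1.28 with it, and all of these were called in edgeR (largest adjusted p = 0.000275).

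The ratio of the arms within a library needs no scaling. The 5p share of all miR-124 reads was 10.1%, 10.8%, 10.9%, 12.7% and 7.77% in DIV1 control libraries 1 to 5, and 8.68%, 10.4%, 11.8%, 11.1% and 8.38% in the DIV1 libraries with GDNF. At DIV5 it was 2.13%, 1.53%, 1.59%, 1.72% and 2.52% in the controls and 1.96%, 1.94%, 1.60%, 1.66% and 1.69% with GDNF. The lowest DIV1 share, 7.77% (95% Wilson interval 6.64% to 9.08%), was still above the highest DIV5 share, 2.52% (2.34% to 2.70%). The intervals cover counting error only: the reads carry no molecular identifier, so several can stem from 1 molecule.

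Expressed as a ratio, there were 8.81 ± 1.86 reads of the 3p arm for each read of the 5p arm in DIV1 controls and 53.6 ± 10.9 in DIV5 controls (SD, n = 5 each). With GDNF the ratios were 9.10 ± 1.55 and 55.9 ± 5.26. The log2 ratio of 3p to 5p counts was higher at DIV5 by 2.60 without GDNF, a 6.08-fold change (two-sided exact permutation p = 0.00794, adjusted over 5 ratio comparisons p = 0.0198). With GDNF it was higher by 2.63, a 6.19-fold change (exact permutation p = 0.00794, adjusted p = 0.0198). The value of 0.00794 is the smallest that 5 libraries against 5 can give. Without DIV5 control libraries 1 and 5 the difference without GDNF was 2.82 (exact permutation p = 0.0357, adjusted p = 0.0893), which ends the call with 3 libraries left in 1 group. Leaving out any 1 library gave differences of 2.52 to 2.72 in the controls and of 2.56 to 2.70 in the GDNF libraries. Each had an adjusted exact permutation p of 0.0397. The unadjusted p was each time the smallest that the remaining libraries can give, so it was fixed once the groups did not overlap.

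Because the 3p arm held most reads at both days, the 2 arms together followed it. Their sum was 2632 ± 292 CPM in DIV1 controls and 6177 ± 160 CPM in DIV5 controls (SD, n = 5 each), a ratio of means of 2.35, and with GDNF 2716 ± 218 and 6148 ± 889 CPM, a ratio of 2.26. As a rank by read count among all miRNAs of a library, miR-124-3p moved from between 54 and 62 in the 10 DIV1 libraries to between 29 and 40 in the 10 DIV5 libraries. miR-124-5p moved from between 144 and 174 to between 212 and 233. The 3p arm held 0.188% to 0.250% of all counts at DIV1 and 0.529% to 0.842% at DIV5.

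**Figure D2:**
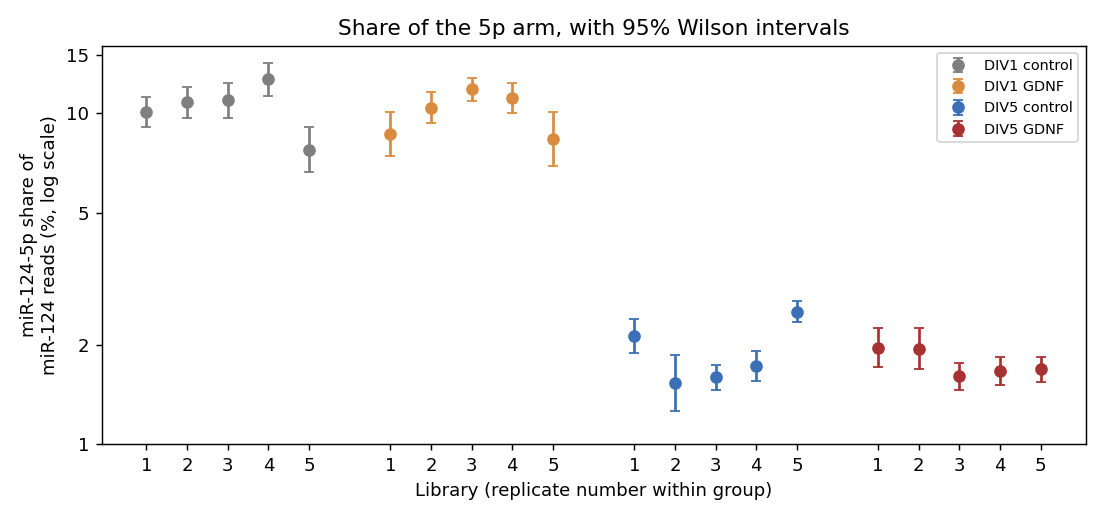
Share of the 5p arm among the reads of both miR-124 arms in each library, in percent on a log axis, with 95% Wilson intervals for counting error, by group and replicate number. DIV1 libraries lie between 7.77% and 12.7% and DIV5 libraries between 1.53% and 2.52%, and DIV5 control libraries 1 and 5 have the highest shares of their day.

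In the DIV5 controls the 5p share was highest in libraries 5 (2.52%) and 1 (2.13%) and between 1.53% and 1.72% in the other 3. Libraries 1 and 5 had 1.26 and 1.57 times the miR-124-5p level of the mean of the other 3 DIV5 controls (100 CPM), against 0.951 and 0.999 times for miR-124-3p. The part of what sets these libraries apart in the 5p level was not tested.

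GDNF was then compared with control at each day, the question of the series' design. At DIV1 the log2 fold change of miR-124-3p was 0.05 (95% interval -0.17 to 0.27, edgeR adjusted p = 1.00) and that of miR-124-5p was 0.0032 (-0.34 to 0.34, adjusted p = 1.00). At DIV5 it was -0.0046 for miR-124-3p (-0.22 to 0.21, edgeR adjusted p = 0.997) and -0.12 for miR-124-5p (-0.46 to 0.22, adjusted p = 0.866). The libraries of the groups overlapped for both arms at both days. The intervals, which still allow a change, are wider for the rarer 5p arm. At DIV1 edgeR called 0% of the 542 miRNAs, DESeq2 and limma voom called none, and 7 miRNAs had an unadjusted p under 0.05. At DIV5 edgeR called 0.185%, which is 1 miRNA, while 88 had an unadjusted p under 0.05. With a replicate block within each day edgeR called 3. Without a block DESeq2 called 26 and limma voom 1. The edgeR count rose without DIV5 control library 2 (11 higher and 32 lower), 3 (5 and 27) or 4 (5 and 32).

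The sign of these small values was not fixed. At DIV5, miR-124-3p had a log2 value of -0.27 within replicates 1 and 2 (edgeR adjusted p = 0.371) and of 0.12 within replicates 3 to 5 (adjusted p = 0.835), the 2 sets that differ in depth. miR-124-5p went from -0.12 to 0.09 without DIV5 control libraries 1 and 5 (edgeR adjusted p = 0.999), and to 0.012 without library 5 alone (adjusted p = 0.996).

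The arm ratio differed by 0.05 on the log2 scale with GDNF at DIV1 (exact permutation p = 0.778, adjusted p = 0.908) and by 0.08 at DIV5 (exact permutation p = 0.603, adjusted p = 0.908). Without DIV5 control libraries 1 and 5 the latter was -0.13 (exact permutation p = 0.214). The difference between the GDNF effects at the 2 days was -0.06 for miR-124-3p (SE 0.15, edgeR adjusted p = 0.951) and -0.12 for miR-124-5p (SE 0.23, edgeR adjusted p = 0.944), beside 0% of the 542 miRNAs called, 50 at an unadjusted p under 0.05 and none called by DESeq2 or limma voom. For the arm ratio it was 0.03 (exact permutation p = 0.908).

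The opposite course of the arms was set beside the other hairpins. Both arms were tested for 144 miRNA names. Without GDNF both arms were called in 56 of these, in 27 both higher at DIV5, in 22 both lower and in 7 in opposite directions. With GDNF both were called in 55, with 25 both higher, 22 both lower and 8 opposite. The opposite pairs of the 2 comparisons had 6 in common, 6 of 7 and 6 of 8: miR-124, miR-153, miR-488, miR-181c, miR-296 and miR-1251. These comparisons share no library, but they come from 1 fit. Same-numbered control and GDNF libraries of DIV5 were correlated (r between 0.217 and 0.639), so the comparisons are not independent. How often calls recur between them over all 144 names was not counted. With DIV5 control libraries 1 and 5 left out, 9 of the 137 pairs then tested were opposite without GDNF. The number with both arms called is not given for that fit. Of the 6 shared pairs 5 remained: the 3p arm of miR-1251 was no longer called (log2 -0.98, edgeR adjusted p = 0.155).

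miR-153, a neuronal miRNA that is also read mostly from its 3p arm, followed the same course at a smaller size. Without GDNF its 3p arm had a log2 value of 0.71 (SE 0.12, edgeR adjusted p = 3.21e-05) and its 5p arm of -0.45 (SE 0.14, adjusted p = 0.00956). miR-488 likewise had 0.31 (edgeR adjusted p = 0.0221) and -0.66 (adjusted p = 0.000789). In miR-181c and miR-296 the 5p arm rose and the 3p arm fell: the 5p arms had 0.34 and 0.55 and the 3p arms -0.49 and -0.79 (edgeR adjusted p between 0.000126 and 0.00737). Without DIV5 control libraries 1 and 5 the 3p arm of miR-296 had -1.30. miR-1251 had 0.91 for its 5p arm and -1.33 for its 3p arm, a rare arm of 6.18 CPM on average. The 3p arm was thus the rising one in miR-124, miR-153 and miR-488 and the falling one in the other three.

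By the size of the change in the 3p to 5p ratio, taken from the fitted log2 values, miR-124 (2.59) was in place 5 of 144 without GDNF and in place 1 with GDNF (2.65). The median size over all pairs was 0.57 without and 0.42 with GDNF. Among the 101 pairs with both arms at 10 CPM or more on average, the 5 largest changes toward the 3p arm without GDNF were in miR-411 (2.92), miR-124 (2.59), miR-455 (2.18), miR-152 (1.96) and miR-377 (1.88). Toward the 5p arm they were in miR-3068 (-4.10), miR-376b (-2.14), miR-379 (-1.83), miR-92b (-1.72) and miR-135b (-1.47). With GDNF the largest toward the 3p arm were in miR-124 (2.65), miR-1298 (1.55), miR-153 (1.55), miR-431 (1.30) and miR-488 (1.13), and toward the 5p arm in miR-296 (-1.74), miR-409 (-1.41), miR-135b (-1.19), miR-99b (-1.17) and miR-3068 (-0.94). Most of the values without GDNF rested on DIV5 control libraries 1 and 5. Without them miR-411 had 0.92, miR-455 0.93, miR-152 0.095 and miR-377 0.70, and miR-376b had -1.06, miR-379 -0.48, miR-92b -0.40 and miR-135b -1.31, while miR-3068 was no longer tested in both arms. miR-124 was then in place 1 of 137 pairs, with 2.82, and miR-598 followed with 2.30. Over all pairs the more abundant arm gained on the rarer one in 75 of 144 without GDNF and in 70 with it.

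**Figure D3:**
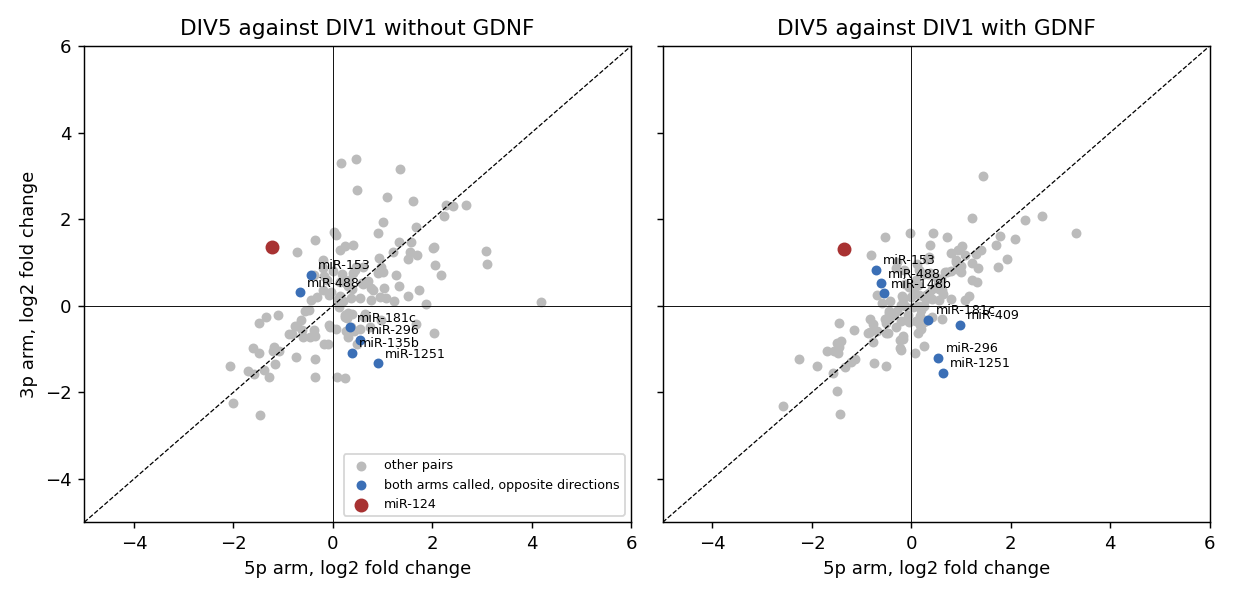
log2 fold change of the 5p arm (x axis) against that of the 3p arm (y axis) between DIV1 and DIV5 for the 144 miRNA names with both arms tested, without GDNF (left) and with GDNF (right). The dashed line marks equal change, and miR-124 lies at -1.23 and 1.36 in the left panel and at -1.35 and 1.31 in the right one, farthest from the line into the upper left quadrant.

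Other neuronal miRNAs were described from a list of 10: miR-128, miR-129, miR-132, miR-212, miR-137, miR-138, miR-153, miR-218, miR-7a and miR-7b, with 21 tested arms. Without GDNF 14 of the 21 arms were called higher at DIV5 and 3 lower in edgeR, with a median log2 value of 1.20 beside 0.10 for all tested miRNAs. With GDNF 11 were higher and 2 lower, with a median of 1.09 beside 0.0017. Leaving out DIV5 control libraries 1 and 5 gave 12 higher and 1 lower without GDNF. Of all 542 tested miRNAs, 31.4% were called higher and 29.3% lower without GDNF with all 5 DIV5 controls, and 25.1% and 27.3% with GDNF. Over the 22 alternatives without GDNF, that reduced fit among them, 143 to 228 miRNAs were called higher, against 170 in the main fit. Called lower were 103 to 167, against 159. miR-138-5p, the main arm of miR-138, was listed at 0 in every library, though miR-138-1-3p had 53.1 CPM in DIV1 controls. Whether this and the other arms listed at 0 below reflect the level or the way reads were counted was not tested.

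miR-128-3p, a miRNA of mature neurons, had levels close to those of miR-124-3p: 2897 ± 973 CPM in DIV1 controls and 8834 ± 3288 CPM in DIV5 controls (SD, n = 5 each; log2 1.61, SE 0.27). miR-129-2-3p, from a miRNA tied to synaptic scaling, had 77.9 and 1407 CPM (log2 4.19, SE 0.34). The CREB-induced pair miR-132 and miR-212 had log2 values of 2.33 and 1.25 for their 3p arms, and miR-218-5p had 0.94. The largest values, 4.49 for miR-7a-5p and 4.85 for miR-7b-5p, had SEs of 0.80 and 0.76. They fell to 1.86 and 2.89 without DIV5 control libraries 1 and 5, miR-137-3p went from 3.30 to 1.74, and miR-132-3p to 1.68. Called lower were miR-128-1-5p (-0.71), miR-138-1-3p (-0.63) and miR-153-5p (-0.45), of which miR-153-5p is the 1 still called without those libraries (-0.60). There miR-128-1-5p had -0.46 (edgeR adjusted p = 0.0752) and miR-138-1-3p -0.60 (adjusted p = 0.111). The higher calls of miR-128-2-5p and miR-138-2-3p were lost there too. Their log2 values went from 1.05 to 0.75 (edgeR adjusted p = 0.168) and from 1.20 to 0.99 (adjusted p = 0.122). miR-124-5p had the lowest log2 value of the tested neuronal arms in both comparisons.

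By counted reads, which depend on how reads of several gene copies were handled, miR-124-3p was not the most abundant neuronal miRNA here. Among the 25 tested arms of the listed miRNAs, miR-9 and miR-124, it was in place 3 in each of the 4 groups, below miR-9-5p and miR-128-3p. miR-9-5p had 72437 ± 13259 CPM in DIV1 controls and 66960 ± 10359 CPM in DIV5 controls and did not pass the test (log2 -0.11, edgeR adjusted p = 0.537). Without DIV5 control libraries 1 and 5 its log2 value was 0.038 (edgeR adjusted p = 0.856). miR-9-3p, the partner of miR-124-3p in the repression of BAF53a, had 807 ± 198 and 1221 ± 217 CPM (log2 0.60, SE 0.18, edgeR adjusted p = 0.00696). That call was lost without DIV5 control libraries 1 and 5 (log2 0.43, edgeR adjusted p = 0.0682). With GDNF it had 817 ± 150 and 936 ± 179 CPM (log2 0.20, edgeR adjusted p = 0.361), and the difference between the 2 changes was not called (-0.40, SE 0.25, edgeR adjusted p = 0.725). In edgeR none of the 21 neuronal arms was called for GDNF at DIV1, where none had an unadjusted p under 0.05 and DESeq2 and limma voom called none. At DIV5 edgeR called none, and 5 (23.8%) had an unadjusted p under 0.05, beside 16.2% of all 542 tested miRNAs. DESeq2 called 3, beside 26 of all 542, and limma voom none, beside 1.

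**Figure D4:**
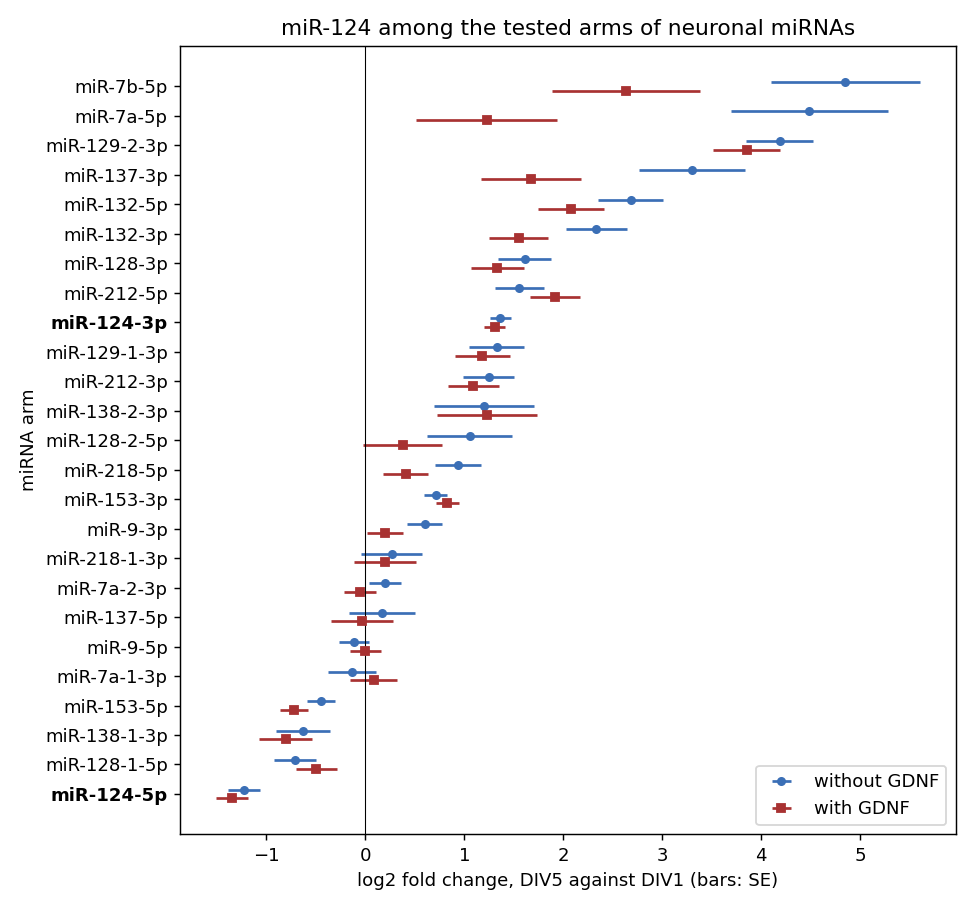
log2 fold change between DIV1 and DIV5 with its SE for the 25 tested arms of the neuronal miRNAs, circles without and squares with GDNF, ordered by the value without GDNF and with the miR-124 arms in bold. miR-124-3p lies at 1.36 and 1.31 in the upper part and miR-124-5p at -1.23 and -1.35 is the lowest arm.

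Markers of other cells moved over the same days. Their counts of calls, here and in the next paragraph, stand beside 31.4% of all 542 miRNAs called higher and 29.3% lower without GDNF. With GDNF these shares were 25.1% and 27.3%, and lists of few tested arms are too short to be compared with them. Of the 19 tested arms of miR-17, miR-18a, miR-19a, miR-19b, miR-20a, miR-92a, miR-106b, miR-93, miR-25 and miR-92b, miRNAs of proliferating cells, 17 were called lower without GDNF and 19 with it, and none higher. Their summed level was 108985 to 152684 CPM in DIV1 controls, 28921 to 42417 CPM in DIV5 controls, 112056 to 139888 CPM at DIV1 with GDNF and 35107 to 42678 CPM at DIV5 with GDNF. The smooth muscle pair miR-143 and miR-145a summed to 2727 to 3803 CPM, 409 to 1331 CPM, 2700 to 3171 CPM and 180 to 1768 CPM in the same order, with 3 of 3 tested arms lower in both comparisons. For the endothelial miR-126a the ranges were 49.4 to 147, 18.5 to 63.6, 42.3 to 83.3 and 17.6 to 33.6 CPM, with its 3p arm lower in both and its 5p arm listed at 0.

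For the list of microglia and blood cells (miR-142a, miR-223, miR-150 and miR-155) the ranges were 72.3 to 119, 15.2 to 51.3, 83.1 to 129 and 13.9 to 40.3 CPM, with 1 and 2 of 2 tested arms lower. The arm not called without GDNF, miR-155-5p (-0.41), had -1.27 without DIV5 control libraries 1 and 5 (edgeR adjusted p = 0.00230). The glial and injury miRNAs miR-21a, miR-31 and miR-146a summed to 2683 to 3377, 2580 to 3156, 2893 to 3505 and 2813 to 3189 CPM. Of their 4 tested arms 2 were called higher and 1 lower without GDNF, and 1 higher with it, and miR-146a-3p was listed at 0. Without DIV5 control libraries 1 and 5 only the call of miR-31-5p was kept (log2 1.78, edgeR adjusted p = 2.43e-06). miR-146a-5p went from 0.99 to -0.16 (adjusted p = 0.664) and miR-21a-3p from -0.89 to -0.71 (adjusted p = 0.0870). The oligodendrocyte miRNAs miR-219a and miR-338 summed to 741 to 938, 356 to 551, 735 to 936 and 333 to 460 CPM, with 1 arm higher and 2 lower of 3 in both comparisons and miR-219a-5p listed at 0. Choroid plexus miRNAs miR-204 and miR-211 summed to 613 to 769, 1231 to 2372, 638 to 912 and 1347 to 1992 CPM, mostly miR-204-5p, with 1 arm higher and 1 lower of 2 in both comparisons. The lower arm, miR-211-5p (-1.15 without GDNF), lost that call without DIV5 control libraries 1 and 5 (-0.84, edgeR adjusted p = 0.0858). The erythroid miR-451a, miR-144 and miR-486a summed to 2202 to 2996, 3292 to 5335, 2286 to 3227 and 4214 to 6376 CPM, with 1 arm higher and 2 lower of 3 in both. The sum is mostly the higher arm, the joined entry of miR-486b-5p and miR-486a-5p (2543 and 4431 CPM in DIV1 and DIV5 controls). The lower arms were miR-451a (36.6 and 9.40 CPM) and miR-144-5p (7.21 and 1.58 CPM). For the mesenchymal miR-199a, miR-199b and miR-214 the sums were 169 to 1159, 134 to 205, 171 to 1172 and 116 to 1365 CPM, with none of 3 arms called in either. The pluripotency miRNAs of the miR-290 and miR-302 clusters had 3 of 20 arms tested, 2 of them lower in both comparisons. The remaining arm, miR-302d-3p (-0.57 without GDNF), had -1.39 without DIV5 control libraries 1 and 5 (edgeR adjusted p = 0.0227). The epithelial miR-200 family had no tested arm and summed to at most 10.8 CPM in any library. The part of a changing mix of cells in the miR-124 levels was not tested.

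The miRNAs whose levels followed miR-124 most closely were picked by Pearson's r of log2 CPM over the 20 libraries, among 438 other miRNAs of at least 10 CPM. The 20 points fall into the 2 days, so r describes mainly the step between them and is given without a test. For miR-124-3p the 5 highest were miR-490-3p (r = 0.973), miR-129-2-3p (0.960), miR-204-5p (0.959), miR-3071-3p (0.956) and miR-873a-5p (0.955). For miR-124-5p they were miR-20a-5p (r = 0.973), miR-17-5p (0.966), miR-8114 (0.953), miR-877-3p (0.940) and miR-19a-3p (0.939). The r between the 2 arms of miR-124 was -0.906, and miR-124-3p was farthest from miR-92a-3p (r = -0.985).

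The sequences of these companions are shown to compare their seeds (bases 2 to 8, in capitals), by which a miRNA recognises its targets. They are the RefSeq mature sequences on GRCm38.p6, where all 10 were matched, written 5′ to 3′. Those nearest to miR-124-3p were:
miR-490-3p: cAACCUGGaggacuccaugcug
miR-129-2-3p: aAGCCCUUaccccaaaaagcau
miR-204-5p: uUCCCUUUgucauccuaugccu
miR-3071-3p: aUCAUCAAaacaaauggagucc
miR-873a-5p: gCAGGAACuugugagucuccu
Those nearest to miR-124-5p were:
miR-20a-5p: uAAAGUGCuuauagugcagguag
miR-17-5p: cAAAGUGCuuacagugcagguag
miR-8114: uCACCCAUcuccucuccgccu
miR-877-3p: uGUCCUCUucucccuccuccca
miR-19a-3p: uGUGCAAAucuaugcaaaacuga
miR-20a-5p and miR-17-5p share 1 seed, and no other 2 of the 10 do. With miR-19a-3p they come from the miR-17-92 cluster on chromosome 14, known from proliferating progenitors, between positions 115043684 and 115044205.

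These companions were picked for likeness in these same libraries, so their levels only describe them, and r does not measure the size of a change. miR-490-3p had 12.9 and 62.7 CPM in the DIV1 and DIV5 controls and miR-204-5p 647 and 1640 CPM, log2 values of 2.32 and 1.34 beside 1.36 for miR-124-3p. The other companions of miR-124-3p had 4.19 (miR-129-2-3p), 1.47 (miR-3071-3p) and 2.24 (miR-873a-5p). miR-17-5p had 1262 and 555 CPM and miR-20a-5p 667 and 289 CPM, log2 values of -1.18 and -1.20 beside -1.23 for miR-124-5p.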

How the data were processed

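Per the submitters' processing notes, cutadapt 1.8.1, STAR 2.4.1d and HTSeq were used with genome build mm10. The HTSeq version, the miRNA annotation and the handling of reads that map to several places are not given in the sources used here. The authors deposited 1 table of raw counts for each library, with a row for each mature miRNA. Reads without a feature, 9.51% to 22.6% of the reads of a library, stayed out of all totals. They were tested with edgeR 4.0.16 under R 4.3.3: filterByExpr, TMM factors and 1 quasi-likelihood fit of all 20 libraries with a coefficient per group, with 5 contrasts and Benjamini-Hochberg adjustment over the 542 miRNAs kept. A miRNA was called at an adjusted p below 0.05. The SE is the size of the log2 value divided by the square root of F. limma 3.58.1 and DESeq2 1.42.0 served as alternatives, with other scalings, filters and sets of libraries. The fit was tested on simulated data. Arm ratios, 1 value per library, were compared with exact permutation tests. Correlations used log2 CPM with a prior count of 2.

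The arms, lists, tests and doubted libraries were chosen with earlier results of these data known, including the opposite direction of the arms with time. Named miRNAs are the 2 arms, the 5 nearest to each by correlation, the listed neuronal arms and the 5 arm pairs with the largest ratio change each way. miR-1251, miR-181c, miR-296, miR-488 and miR-598 were chosen after their values were seen.

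At DIV5 the deviations from the group mean of control and GDNF libraries with the same replicate number were correlated in all 5 pairs (r between 0.217 and 0.639 over miRNAs). Of the 5 control libraries, 3 correlated best with the GDNF library of their own number. A pairing by number was therefore used only as an alternative, the replicate block, and the main fit and main permutation tests have no block. Libraries with other numbers in the same set of DIV5 replicates (1 and 2, or 3 to 5) were also correlated (r between 0.184 and 0.370). Libraries of different sets were negatively correlated (r between -0.468 and -0.151), which centring on group means favours once r within sets is positive. A shared set and a shared number therefore cannot be told apart in full. That pairing comes from the data and not from the labels.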

Additional observations from a re-analysis of the deposited data

How the results depend on the processing

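The changes of both arms between the days kept their direction and their call under all alternatives run, 22 without and 21 with GDNF for each arm: miR-124-3p ranged from 1.30 to 1.61 in the controls and from 1.11 to 1.58 with GDNF, and miR-124-5p between -1.43 and -0.96 and between -1.39 and -1.07. With the replicate block the values were 1.37 and 1.30 for miR-124-3p and -1.22 and -1.34 for miR-124-5p, and for GDNF 0.055 and -0.016 (miR-124-3p) and -0.0015 and -0.10 (miR-124-5p) at DIV1 and DIV5. The block changed no call of an arm in edgeR. At DIV1 the numbers pair 4 of 5 libraries at r over 0.1 (lowest 0.0764) and 2 control libraries correlate best with their own number, and across the days at most 1 of 5 pairs is over 0.1.

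The arm ratio change lost its call where few arrangements remain. The same-numbered sign-flip test, a replicate block, gave 2.60 and 2.63 (exact p = 0.0625, the smallest possible, adjusted p = 0.125). DIV5 replicates 1 and 2 alone gave 2.65 and 2.48 (exact p = 0.0952), replicates 3 to 5 alone 2.57 and 2.73 (exact p = 0.0357, adjusted p = 0.0893), and the set without DIV5 control libraries 1 and 5 gave 2.82.

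Small GDNF values changed sign, none of them called. miR-124-3p at DIV5 was 0.091 with upper-quartile factors, 0.0087 without a filter, 0.0031 with the filter at 10 CPM and 0.12 in replicates 3 to 5. Its difference between days was 0.068, 0.0036 and 0.099 with the first, the second and the last of these. miR-124-5p at DIV1 was -0.021 with RLE factors, -0.023 with upper-quartile factors, -0.040 without a filter, -0.014 in DESeq2, -0.0015 with the block and -0.020 with only the groups compared. Its difference between days was 0.019 with upper-quartile factors. Without DIV5 control libraries 1 and 5, miR-124-5p was 0.094 at DIV5 with a difference between days of 0.12, and the arm ratio was -0.13 and -0.19. In replicates 1 and 2 the ratio values were -0.11 and -0.17, and as a 5p share in percent the difference between days was 0.25. Upper-quartile factors moved the median of all miRNAs by 0.089 for GDNF at DIV5 and by 0.12 for the difference between days, about as much as these values moved. The cause of the other changes was not tested.

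Leaving out 1 library at a time gave for GDNF values of miR-124-3p -0.010 to 0.086 at DIV1, -0.089 to 0.053 at DIV5 and -0.12 to 0.019 for the difference. For miR-124-5p these were -0.10 to 0.063, -0.18 to 0.012 and -0.19 to 0.033, and for the ratio -0.029 to 0.17, -0.030 to 0.15 and -0.088 to 0.11.

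Counts of all miRNAs moved by over 1.5 times in some settings. GDNF at DIV5 had 1 higher and 0 lower, against up to 11 higher and 32 lower over the alternatives: DESeq2 called 7 and 19, and leaving out DIV5 control library 2, 3 or 4 gave 11 and 32, 5 and 27, and 5 and 32. With DIV5 replicates 1 and 2 alone, 103 rather than 159 were lower without GDNF and 85 rather than 136 higher with it. The difference between days had 1 call in replicates 3 to 5 and 1 without DIV5 control library 2. The neuronal arms called lower went from 3 to 1 without DIV5 control libraries 1 and 5, an alternative added after the data were seen. Depth limits the 5p arm most, with as few as 96 reads in a DIV1 library.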

Other observations

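Likeness within the groups was described by Pearson's r of deviations from the 4 group means, over the same 20 libraries and 438 miRNAs and with no test, since the libraries share depth, scaling and replicate numbers. Nearest to miR-124-3p were miR-551b-3p (r = 0.764), the neuronal miR-153-3p (0.739), the joined entry of let-7c-2-3p and let-7a-1-3p (0.732), miR-135b-5p (0.728) and miR-9-3p (0.716). Nearest to miR-124-5p were miR-324-5p (r = 0.791), miR-20a-5p (0.747), miR-7a-2-3p (0.740), miR-382-3p (0.720) and miR-130a-3p (0.707). Of the 5 miRNAs nearest to each arm over all libraries, only miR-20a-5p, for miR-124-5p, is also among the 5 nearest within groups. The 2 arms of miR-124 had an r of 0.280 within groups, against -0.906 over all libraries. The lowest r within groups was that of miR-540-3p with miR-124-3p (-0.855) and of miR-222-3p with miR-124-5p (-0.708).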
